A study of Mus musculus with 7 samples.

Results

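The 37 genes described here encode the enzymes that add acetyl groups to histones and other proteins, the enzymes that remove them, and the nuclear receptor corepressors and coactivators that bring both kinds to chromatin. They were found by gene name in the deposited table of 57180 genes, as the histone deacetylases Hdac1 to Hdac11, the sirtuins Sirt1 to Sirt7, the lysine acetyltransferases of the Kat series, Crebbp, Ep300, Hat1, Naa60 and genes of the Ncor and Ncoa series. All 37 were present once, and all 37 passed the filter on low counts. By role they comprise 11 acetyltransferases, 18 deacetylases and 8 coregulators. Both genes given as markers of the set, Crebbp and Ep300, were well expressed in each library.

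Acetylation of histone tails loosens chromatin and recruits bromodomain proteins, and deacetylases reverse it within multi-subunit repressor complexes. In regulatory T cells (Treg cells, CD4 T cells that restrain immune responses) the transcription factor FOXP3 is itself a substrate: p300 and TIP60 acetylate it, SIRT1 deacetylates it, and HDAC7 and HDAC9 have been found in its complexes. These statements are background and not results of these data.

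RNA came from Treg cells sorted out of B16-F0 tumours, a transplantable mouse melanoma, in mice whose Foxp3 gene also drives YFP and Cre recombinase. The 4 FOXP3-low and 3 FOXP3-high libraries differ in the sorted FOXP3 level. Both groups share the reporter allele, the tumour and the tissue, and the labels call the genotype wild type. Gates, ages and sexes of the mice are not in the labels. Nor do the labels state whether each sample was taken from its own mouse, and the spread behind each p-value may therefore be a technical one. Library totals ran from 9048771 to 14546999 counts. Foxp3 reached at most 397 CPM (library-size-normalised counts on TMM-scaled sizes) in FOXP3-low and at least 639 CPM in FOXP3-high.

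The sorted populations also differed in RNA of other cells, and each comparison that follows stands beside these values. Of 20 macrophage and monocyte markers 19 were lower and 1 higher in FOXP3-high, the exception being the chemokine receptor Ccr2, which Treg cells of tumours can also express. Their summed level was 2749 to 3383 CPM in FOXP3-low and 758 to 801 CPM in FOXP3-high, and no marker of this list was at 0 in all libraries. Neutrophil markers summed to 2638 to 3102 CPM against 103 to 235 CPM, and dendritic cell and MHC class II markers to 2057 to 3144 CPM against 180 to 288 CPM. Most of the neutrophil sum was Il1b, whose mean fell from 2020.5 to 96.4 CPM, followed by S100a9, from 645 to 39.9 CPM. Of the 7 neutrophil genes tested 6 were lower. Mmp9 was not called (9.79 against 8.86 CPM), and Ly6g did not pass the filter on low counts. B and plasma cell markers summed to 227 to 388 CPM against at most 34.5 CPM. Stromal markers were highest in a library numbered 3 within each group: endothelial sums were 317 and 347 CPM in these, against 99.9 to 121 CPM in the other FOXP3-low and 73.4 to 201 CPM in the other FOXP3-high libraries. Fibroblast and pericyte sums were 1413 and 725 CPM in the libraries numbered 3, against 553 to 799.8 CPM and 57.6 to 374 CPM. Of the 7 fibroblast and pericyte genes tested only Fn1 was called, as lower. Its mean fell from 642 to 142 CPM, while the median log2 fold change of the 7 was -0.012. Without both libraries numbered 3, 13 of the 37 genes were higher and 4 lower. All 12 melanoma and melanocyte markers were higher in FOXP3-high (1446 to 2590 CPM against 3504 to 4824 CPM), as were 17 of 18 T cell identity genes (3196 to 3674 CPM against 4583 to 5304 CPM). All 24 cell cycle genes were lower, with sums of 7154 to 7721 CPM against 1598 to 1905 CPM. The part of these differences in the results on the acetylation genes was not tested. In bulk RNA, fewer cells of a type and less RNA per cell cannot be told apart.

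Levels of different genes were compared per length, as TPM, the length-normalised transcript abundance, computed from the counts and the deposited gene lengths. Within FOXP3-low the most abundant was Hdac1, a class I deacetylase of the SIN3, NuRD and CoREST complexes, at 288 TPM. Kat6a, the MYST acetyltransferase also called MOZ, followed at 241 TPM and Ncor1, a corepressor that activates HDAC3, at 164 TPM. In FOXP3-high the order of these 3 genes was Kat6a at 396 TPM, Ncor1 at 226 TPM and Hdac1 at 225 TPM. At the other end, Hdac9, Sirt5 and Sirt3 were the 3 lowest genes in both groups, with 0.892, 0.993 and 1.23 TPM in FOXP3-low. Precision differed between genes. The coefficient of variation across FOXP3-low libraries was 1.52% for Ncor1, 43.8% for Hdac11 and 26.2% for Hdac9, but 8.58% for the low gene Sirt4 and 10.4% for the more abundant Hdac3. TPM was used to rank genes within a group and not to compare the groups.

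**Figure D1:**
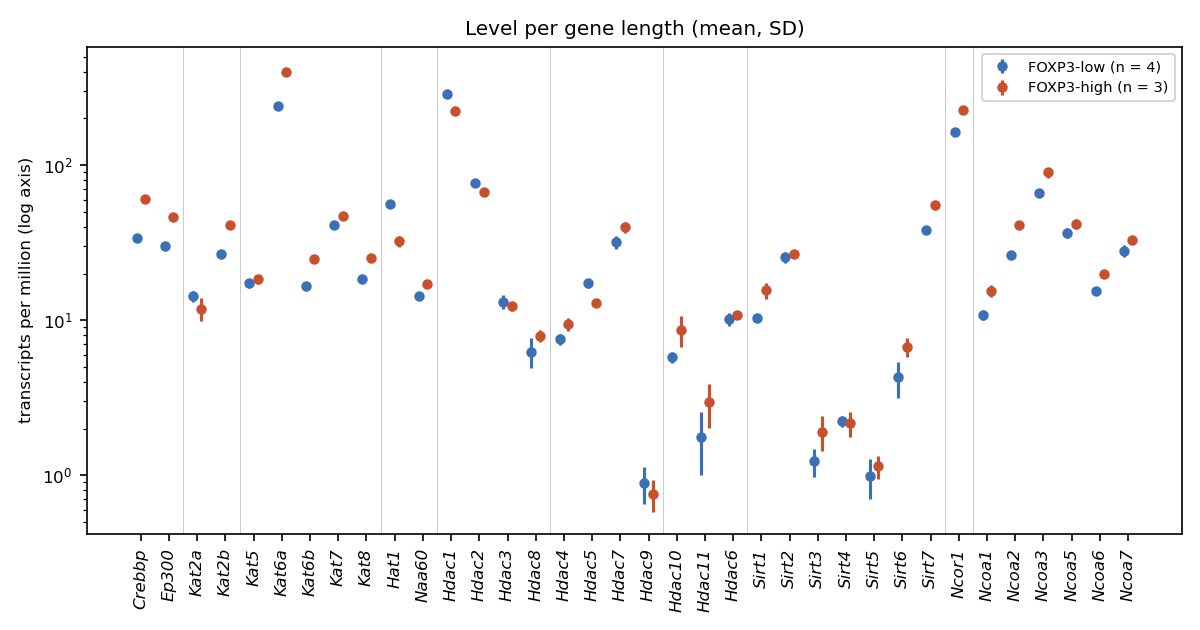
Level of 36 of the 37 genes per gene length, in TPM on a log axis, as mean and SD over 4 FOXP3-low and 3 FOXP3-high libraries, with grey lines between roles. Hdac1, Kat6a and Ncor1 hold the top of the range in both groups, and Hdac9 lies lowest.

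The comparison asks which of these genes differed between tumour Treg cells sorted as FOXP3-high and as FOXP3-low. In edgeR's quasi-likelihood test, 18 of the 37 genes passed a Benjamini-Hochberg adjusted p of 0.05 over all 15838 genes tested, which is 48.6% of the set against 46.5% of all genes tested. The share of changed genes was thus near the background. Higher in FOXP3-high were 13 genes, where 21.8% of all genes tested were higher, and lower were 5, where 24.6% were. The median log2 fold change (FOXP3-high minus FOXP3-low) of the 37 genes was 0.17, beside 0.012 for all genes tested. Libraries of the groups did not overlap for 18 of the 37 genes, where 50.7% of all genes tested were so separated. Most changes were small: 2 of the genes were called with a log2 fold change of at least 0.5 (13.2% of all genes tested) and 3 with one of -0.5 or below (16.9%).

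The direction of the rising genes depended on how the libraries were scaled. When libraries were scaled to the summed counts of the 18 T cell identity genes in place of TMM, all genes together shifted by a median of -0.48. Calls over all 15838 genes tested then numbered 762 higher and 7996 lower, where TMM gave 3459 and 3898. Under that scaling 1 of the 37 genes, Crebbp, was higher (log2 fold change 0.19, edgeR adjusted p = 0.049) and 20 were lower, among them all 5 genes that were lower with TMM. Of the 13 genes called higher with TMM, 3 were then called lower: Ncor1, Ncoa3 and Ncoa6. With total counts, upper quartile factors or DESeq2 size factors the 13 remained higher. Every statement below that a gene rose is on the TMM scale and carries this limit.

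**Figure D2:**
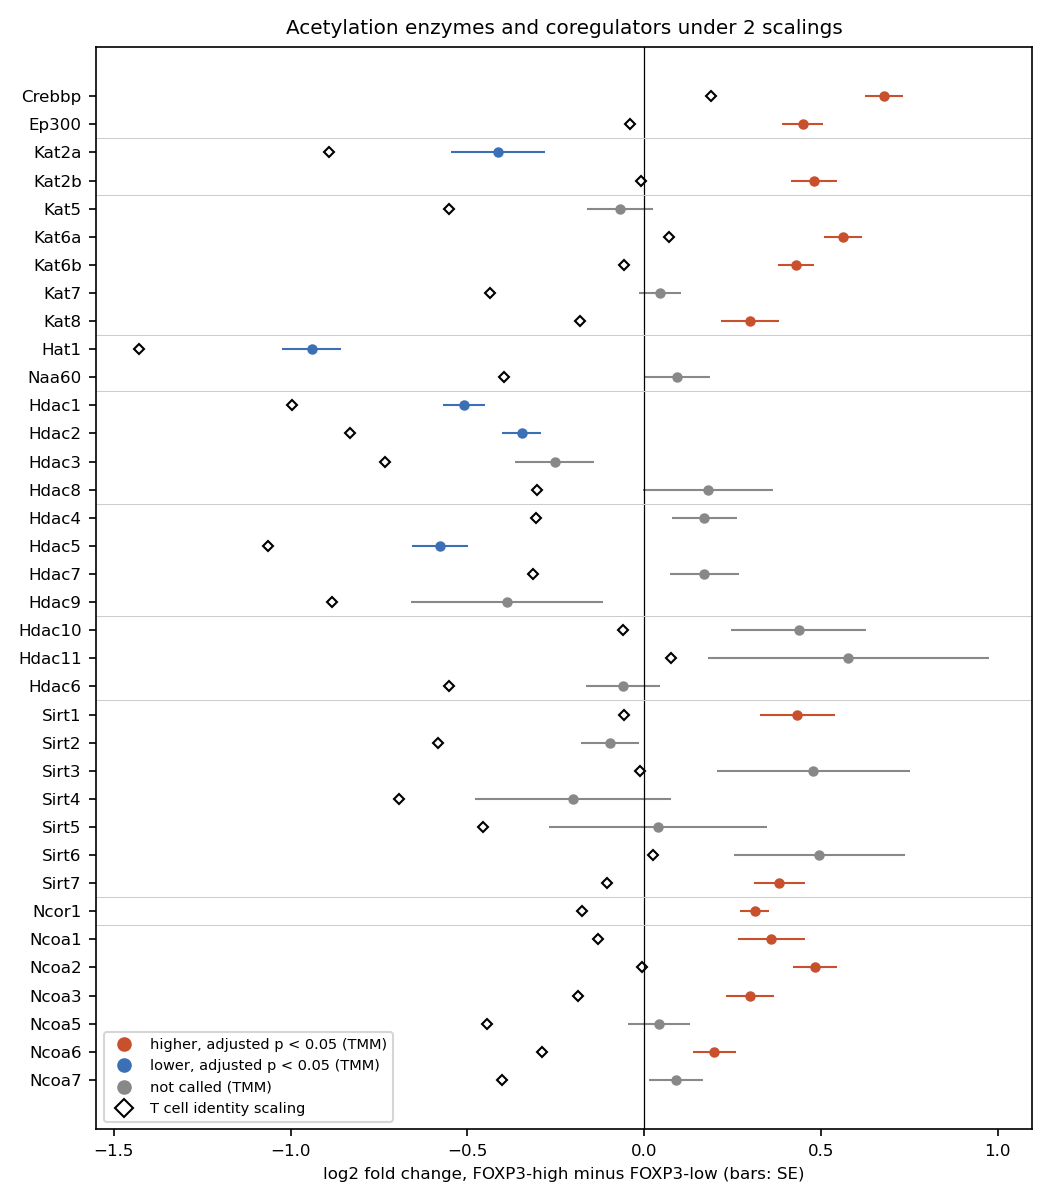
Log2 fold change of 36 of the 37 genes, FOXP3-high minus FOXP3-low, ordered by role. Filled points with SE bars use TMM scaling and are coloured by the edgeR call, and open diamonds use T cell identity scaling, which moves each gene to the left so that Crebbp, Kat6a, Hdac11 and Sirt6 alone lie above 0.

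Among the acetyltransferases 6 of 11 rose and 2 fell with TMM, where 21.8% and 24.6% of all genes tested did. With T cell identity scaling 1 was higher and 5 were lower. Crebbp encodes CBP, a large acetyltransferase that many transcription factors recruit to enhancers (ENSMUSG00000022521, chromosome 16, 3899192 to 4031861, minus strand). It stood at 147, 156, 154 and 144 CPM in the FOXP3-low libraries 1 to 4 and at 233, 255 and 234 CPM in the FOXP3-high libraries 1 to 3. The groups did not overlap, and the spread within each was small. The log2 fold change was 0.68 ± 0.053 (SE; edgeR adjusted p = 6.80e-06), the largest increase of the 18 called genes. Its paralog Ep300, which encodes p300, stood at 138, 151, 143 and 134 CPM against 189, 205 and 185 CPM. It rose by less, with a log2 fold change of 0.45 ± 0.058 (edgeR adjusted p = 1.88e-04). With T cell identity scaling the value of Ep300 was -0.039.

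Kat6a, the most abundant acetyltransferase here, works with BRPF proteins on histone H3 (ENSMUSG00000031540, chromosome 8, 23349551 to 23433275, plus strand). Its libraries read 718, 726, 764 and 736 CPM in FOXP3-low and 1032, 1181 and 1048 CPM in FOXP3-high. The log2 fold change of Kat6a was 0.56 ± 0.053 (edgeR adjusted p = 2.48e-05). Scaled to T cell identity genes it was 0.072 and no longer called. Kat6b, its paralog, rose from 90.8 ± 1.59 to 122 ± 4.35 CPM (mean ± SD, n = 4 and n = 3), and Kat8, the histone H4 lysine 16 acetyltransferase MOF, from 17.4 ± 0.777 to 21.4 ± 0.347 CPM. The call of Kat8 was lost without FOXP3-low replicate 3 (edgeR adjusted p = 0.053) and without FOXP3-high replicate 1 (edgeR adjusted p = 0.064). It was also lost without a filter on low counts (edgeR adjusted p = 0.11), without the libraries numbered 3 (edgeR adjusted p = 0.12) and in the DESeq2 Wald test (adjusted p = 0.055), while the length correction described further on raised the log2 fold change of Kat8 from 0.30 to 0.51. The other MYST genes were not called: Kat7, which encodes HBO1, was at 74.2 ± 3.38 and 76.4 ± 1.55 CPM, and Kat5, which encodes TIP60, at 19.9 ± 1.40 and 19.0 ± 1.24 CPM. Kat5 overlaps Rnaseh2c on the opposite strand, which held more counts than Kat5 itself.

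The GCN5 and PCAF genes, alternative catalytic subunits of the SAGA and ATAC complexes, went in opposite directions. Kat2b (PCAF) read 41.6, 43.9, 43.4 and 40.8 CPM in FOXP3-low and 57.4, 62.5 and 57.8 CPM in FOXP3-high, a log2 fold change of 0.48 ± 0.065 (edgeR adjusted p = 2.51e-04). Kat2a (GCN5) read 15.1, 18.3, 15.5 and 16.0 CPM against 14.4, 10.7 and 11.4 CPM. The Kat2a libraries were separated by a narrow gap, between 15.1 and 14.4 CPM. Its log2 fold change was -0.41 ± 0.13 (edgeR adjusted p = 0.029). The call of Kat2a was lost when any of FOXP3-low replicates 1, 2 or 4 or FOXP3-high replicates 2 or 3 was left out, with edgeR adjusted p between 0.0502 and 0.13. Scaling by total counts also ended it (log2 fold change -0.34, edgeR adjusted p = 0.069), as did leaving out the libraries numbered 3 (edgeR adjusted p = 0.11) and the replicate block (edgeR adjusted p = 0.063).

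Hat1 showed the largest decrease of the called genes. It encodes the type B acetyltransferase that acetylates newly made histone H4 before deposition on replicating DNA (ENSMUSG00000027018, chromosome 2, 71219302 to 71271966, plus strand). The 4 FOXP3-low libraries read 53.6, 54.1, 52.4 and 51.0 CPM and the 3 FOXP3-high libraries 25.3, 30.8 and 26.5 CPM. The groups were well apart, with a log2 fold change of -0.94 ± 0.083, a 1.92-fold difference (edgeR adjusted p = 1.56e-05). With T cell identity scaling the log2 fold change of Hat1 was -1.43. Cell cycle genes, 24 in number, had a median log2 fold change of -1.87 with TMM, and what part they have in the Hat1 difference was not tested. Naa60, an N-terminal acetyltransferase of the Golgi that also acts on histone H4, was not called, at 17.7 ± 0.841 and 18.9 ± 1.39 CPM, and Gm20695, which overlaps it on the same strand, held about as many counts (17.8 and 19.9 CPM). On the opposite strand Naa60 overlaps Zfp597 (13.0 and 16.4 CPM) and 1700037C18Rik (5.67 and 5.34 CPM).

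**Figure D3:**
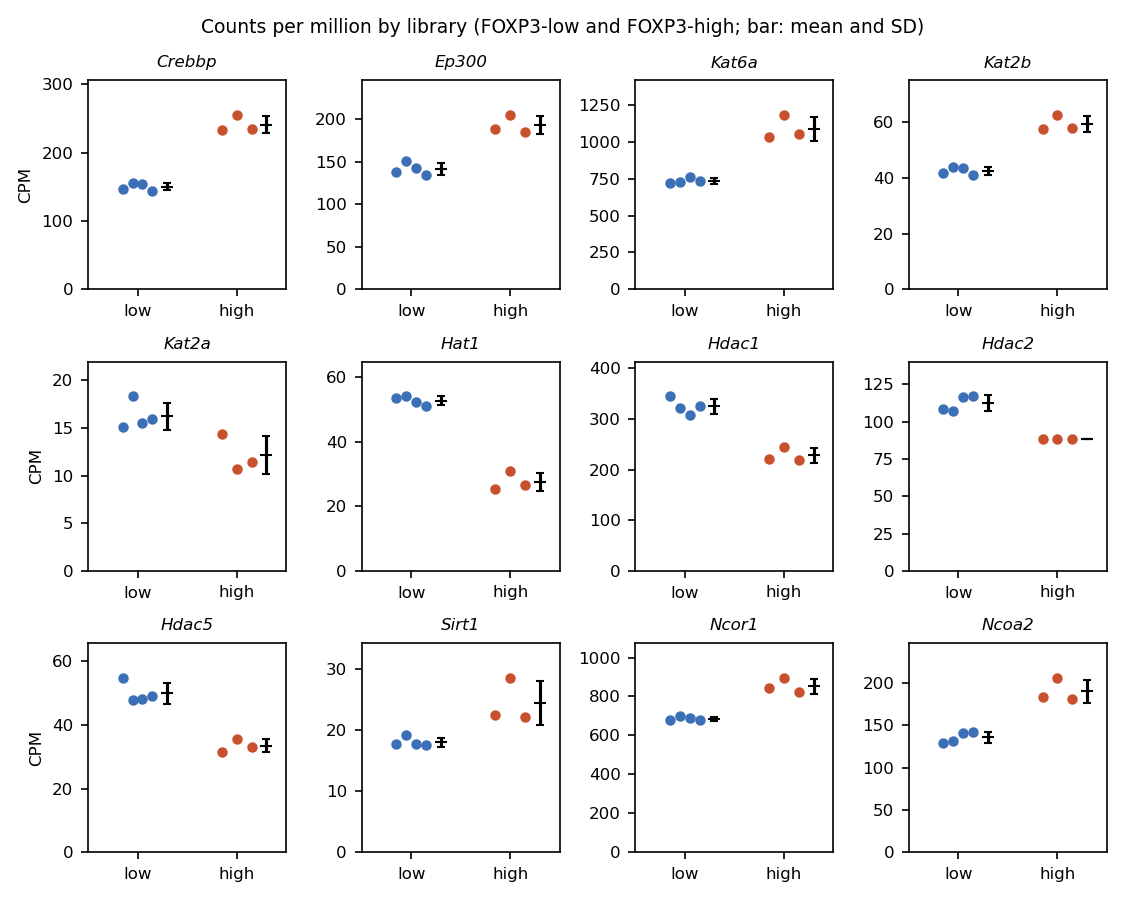
CPM in each library for 12 of the genes, with FOXP3-low in blue and FOXP3-high in red and the mean and SD beside each group, on axes that start at 0. In each panel the 3 FOXP3-high libraries lie on one side of the 4 FOXP3-low libraries, most narrowly for Kat2a (14.4 against 15.1 CPM).

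None of the 11 histone deacetylase genes was called higher with TMM, and 3 were lower: Hdac1, Hdac2 and Hdac5. The 3 were 27.3% of these genes, near the 24.6% lower among all genes tested, of which 21.8% were higher. With T cell identity scaling 8 of the 11 were lower, where 7996 of all 15838 genes tested were lower. Hdac1 (ENSMUSG00000028800, chromosome 4, 129409897 to 129436484, minus strand) read 344, 321, 307 and 326 CPM in FOXP3-low and 221, 245 and 218 CPM in FOXP3-high. All FOXP3-high libraries lay well below all FOXP3-low libraries, with a log2 fold change of -0.51 ± 0.059 (edgeR adjusted p = 8.73e-05). For Hdac1 this was -0.32 with the length correction (edgeR adjusted p = 0.020) and -0.997 when scaled to T cell identity genes. Hdac2, the second catalytic subunit of the same complexes, read 109, 107, 117 and 117 CPM against 88.5, 88.4 and 88.2 CPM, a log2 fold change of -0.35 ± 0.055 (edgeR adjusted p = 6.84e-04). For Hdac2 the same alternatives gave -0.22 (edgeR adjusted p = 0.044) and -0.83. The other class I genes were not called. Hdac3, the catalytic partner of nuclear receptor corepressors, was at 17.5 ± 1.82 and 14.6 ± 0.831 CPM (log2 fold change -0.25 ± 0.11, edgeR adjusted p = 0.093), and it passed as lower without FOXP3-low replicate 3 (-0.32, edgeR adjusted p = 0.043). Hdac8 was at 9.94 ± 2.16 and 11.3 ± 0.830 CPM.

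Class IIa deacetylases shuttle between cytoplasm and nucleus under kinase control and repress MEF2 target genes. Hdac5 (ENSMUSG00000008855, chromosome 11, 102085258 to 102120968, minus strand) read 54.8, 47.8, 48.1 and 48.9 CPM in FOXP3-low and 31.6, 35.7 and 33.0 CPM in FOXP3-high. Its 2 groups did not overlap, with a log2 fold change of -0.58 ± 0.080, a 1.49-fold difference (edgeR adjusted p = 2.75e-04), and of -1.06 with T cell identity scaling. The other 3 genes of the class were not called. Hdac4 was at 39.0 ± 3.61 and 43.9 ± 3.18 CPM, and Hdac7, found in FOXP3 complexes, at 70.3 ± 6.86 and 79.1 ± 8.95 CPM. Hdac9 was near the floor of the set, at 4.32 ± 1.13 and 3.33 ± 0.805 CPM, with a log2 fold change of -0.39 ± 0.27 (edgeR adjusted p = 0.28). Its value was -0.21 without FOXP3-low replicate 3, the library in which it was highest at 5.89 CPM, and -0.22 without FOXP3-high replicate 1. Both Hdac4 and Hdac7 passed as lower with T cell identity scaling (log2 fold changes -0.30 and -0.32, edgeR adjusted p = 0.035 and 0.0041).

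The class IIb and class IV genes gave no call. Hdac6, the tubulin deacetylase, stood at 19.3 ± 1.85 and 18.5 ± 1.27 CPM. Hdac10, a polyamine deacetylase, stood at 6.37 ± 0.530 and 8.65 ± 2.10 CPM, with a log2 fold change of 0.44 ± 0.19 (edgeR adjusted p = 0.089). It passed as higher without FOXP3-high replicate 3, the library in which it was lowest of that group at 6.42 CPM (0.61, edgeR adjusted p = 0.018). Hdac11, which removes long fatty acyl groups, was at 2.24 ± 0.980 and 3.35 ± 1.14 CPM, where libraries ranged from 0.976 to 3.26 CPM in FOXP3-low. It overlaps Gm44002 on the opposite strand (0.705 and 1.37 CPM).

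Sirtuins are NAD-dependent deacylases. With TMM 2 of 7 were called, both higher, where 21.8% of all genes tested were higher. T cell identity scaling gave 0 higher and 1 lower. Sirt1, the nuclear enzyme that deacetylates FOXP3, read 17.7, 19.2, 17.8 and 17.7 CPM in FOXP3-low and 22.5, 28.6 and 22.3 CPM in FOXP3-high. FOXP3-high replicate 2 was the highest, and the groups did not overlap (log2 fold change 0.43 ± 0.11, edgeR adjusted p = 0.0080). Sirt7, a nucleolar enzyme, was the most abundant sirtuin per length (38.0 TPM in FOXP3-low). Its level rose from 63.9 ± 3.15 CPM in FOXP3-low to 83.4 ± 7.05 CPM in FOXP3-high, and edgeR gave a log2 fold change of 0.38 ± 0.073 with an adjusted p of 0.0020. With T cell identity scaling both lay below 0, at -0.058 for Sirt1 and -0.10 for Sirt7, and neither was called. The cytoplasmic Sirt2 was at 42.1 ± 3.39 and 39.4 ± 1.68 CPM and was not called. It overlaps Nfkbib on the opposite strand, whose FOXP3-low level was 80.8 CPM and FOXP3-high level 47.6 CPM. The mitochondrial sirtuins Sirt3, Sirt4 and Sirt5 and the chromatin enzyme Sirt6 were at 1.75 to 3.92 CPM on average in FOXP3-low, and none was called. Sirt3 overlaps Psmd13 and Ric8a on the opposite strand, which held 56.7 and 28.4 CPM in FOXP3-low against 2.41 CPM of Sirt3. Whether reads were counted by strand is not stated for these data.

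Coregulators gave 5 genes higher and none lower of 8 with TMM, beside 21.8% and 24.6% of all genes tested. With T cell identity scaling they gave 0 higher and 6 lower. Ncor1, which brings HDAC3 to unliganded nuclear receptors, read 678, 699, 691 and 679 CPM in FOXP3-low and 842, 895 and 821 CPM in FOXP3-high (log2 fold change 0.31 ± 0.042, edgeR adjusted p = 2.42e-04). The p160 coactivators, which bind liganded receptors and recruit CBP and p300, each rose. Ncoa2 rose from 136 ± 6.60 to 189.9 ± 13.8 CPM, Ncoa1 from 30.4 ± 2.10 to 39.0 ± 4.46 CPM and Ncoa3 from 170 ± 7.80 to 209 ± 19.3 CPM, with log2 fold changes of 0.48, 0.36 and 0.30. With T cell identity scaling these 3 were at -0.0070, -0.13 and -0.19. Ncoa6 rose from 49.6 ± 1.60 to 56.9 ± 1.53 CPM (edgeR adjusted p = 0.024), a call lost without FOXP3-high replicate 1 (edgeR adjusted p = 0.13). Ncoa5 and Ncoa7 were not called, at 52.5 ± 3.85 and 54.2 ± 5.33 CPM and at 96.6 ± 7.93 and 103 ± 6.45 CPM.

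Ratios of related genes within a library do not depend on scaling, and 8 pairs were compared. For 4 of them the FOXP3-high libraries did not overlap the FOXP3-low libraries, where 50.7% of single genes were separated in this way. That share is of CPM values, which is another measure, and no share over other gene pairs was computed. The log2 ratio of Crebbp to Ep300 was 0.099, 0.048, 0.11 and 0.10 in FOXP3-low and 0.30, 0.32 and 0.34 in FOXP3-high. The ratio was higher in each FOXP3-high library than in any FOXP3-low library, by 0.23 on average. Kat2a to Kat2b went from -1.39 ± 0.10 to -2.29 ± 0.27 (SD), the widest shift of the 8. Hdac4 to Hdac5 went from -0.36 ± 0.15 to 0.39 ± 0.17, so that Hdac5 held more counts (not corrected for length) than Hdac4 in all 4 FOXP3-low libraries and fewer in all 3 FOXP3-high libraries. Kat6a to Kat6b went from 3.02 ± 0.028 to 3.15 ± 0.068. In the remaining pairs the libraries overlapped: Hdac1 to Hdac2, Hdac6 to Hdac10, Hdac7 to Hdac9 and Ncoa1 to Ncoa3. Each of the 4 separated pairs had a two-sided exact permutation p of 0.057, the smallest that 4 against 3 samples allow, so this test could not pass 0.05 for any pair.

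**Figure D4:**
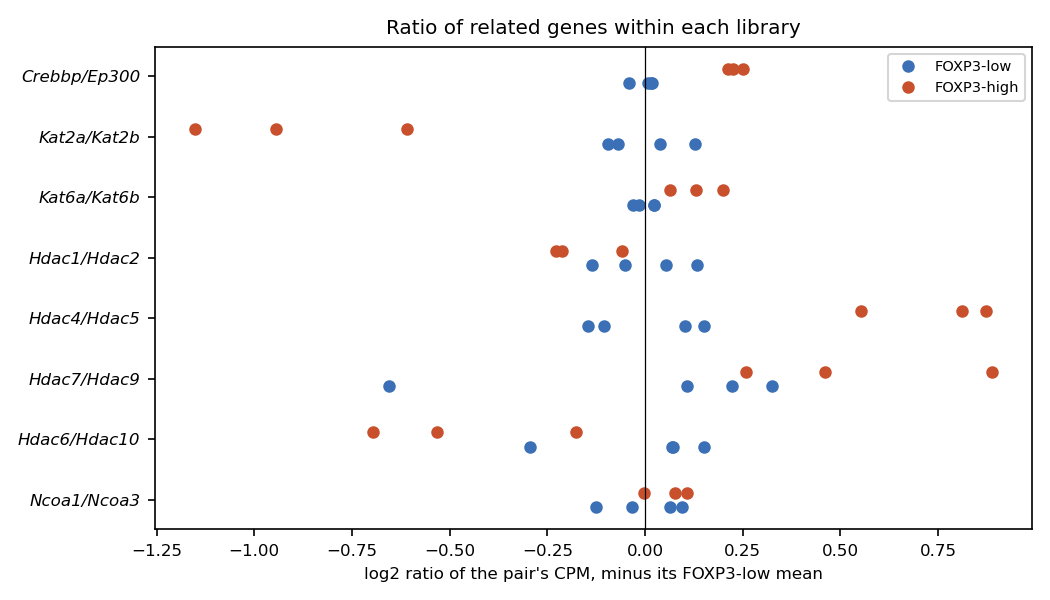
Log2 ratio of the counts of 2 related genes within each library, minus the FOXP3-low mean of that pair, with each point a library. The FOXP3-high points lie apart from the FOXP3-low points for Crebbp/Ep300, Kat2a/Kat2b, Kat6a/Kat6b and Hdac4/Hdac5.

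Rising genes were longer than falling ones. The median deposited length was 9330 bases for the 13 genes called higher and 3480 bases for the 5 called lower, beside 5396 and 3479 bases for all genes called higher and lower. Across the 37 genes Spearman's rho of length with log2 fold change was 0.27, and across all genes tested it was 0.13; genes of one library share its RNA quality and depth, and no test was made of either value. A correction for gene length, added after the data were seen, moved the median of all genes by 0.13 and left 11 of the 13 higher and 4 of the 5 lower genes called. Ncor1 (log2 fold change 0.22, edgeR adjusted p = 0.078), Ncoa6 (0.16, edgeR adjusted p = 0.15) and Kat2a (-0.24, edgeR adjusted p = 0.20) were not called under that correction. Hdac10 and Sirt6 then passed as higher (edgeR adjusted p = 0.032 and 0.040).

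**Figure D5:**
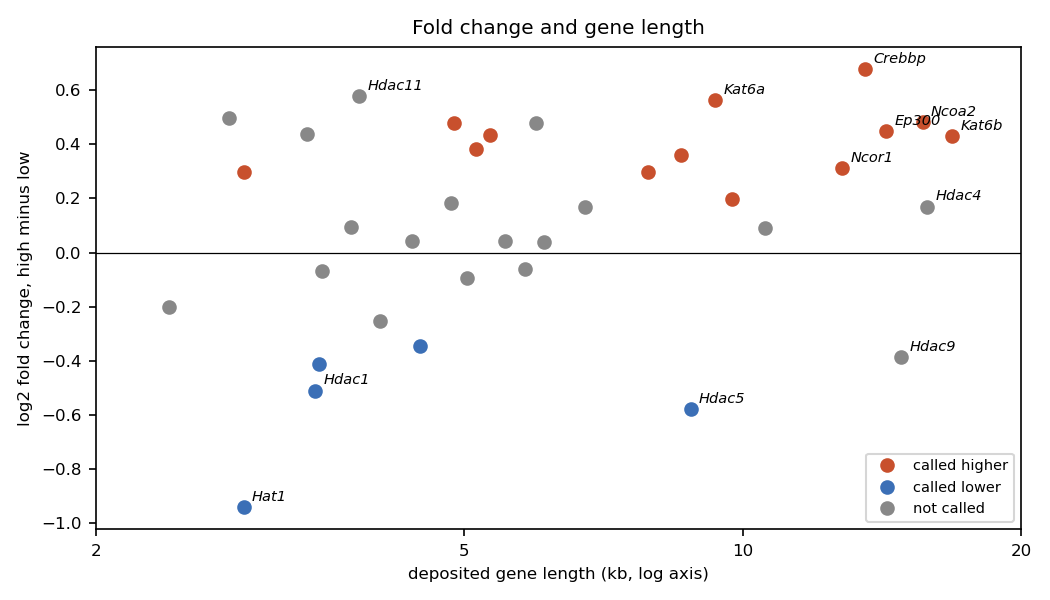
Log2 fold change against deposited gene length in kilobases on a log axis, 1 point for each of 36 genes and coloured by call. Of the called genes, Hat1, Hdac1, Hdac2 and Kat2a lie among the short genes and Crebbp, Ep300, Kat6b, Ncoa2 and Ncor1 among the long ones. Against this order, Hdac5 is a long gene that fell and Kat8 (2891 bases, beside 2886 for Hat1) a short gene that rose.

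The upstream sequence of genes that fell together and of the rising Crebbp and Ep300 pair is shown to let their promoters be compared. The RefSeq table of promoters (build GRCm38.p6, a different build from that of the counts) held windows for 30 of the 37 genes. It held none for Hdac1, which also fell. Each line gives the 250 bases upstream of the start, 5′ to 3′. Capitals mark matches on either strand to CCAAT, to the GC box GGGCGG, or to 1 of 4 E2F-type words (TTTCCCGC, TTTGGCGC, TTTCGCGC, TTTGCCGC).

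Hat1, chr2:71389010-71389259, plus strand: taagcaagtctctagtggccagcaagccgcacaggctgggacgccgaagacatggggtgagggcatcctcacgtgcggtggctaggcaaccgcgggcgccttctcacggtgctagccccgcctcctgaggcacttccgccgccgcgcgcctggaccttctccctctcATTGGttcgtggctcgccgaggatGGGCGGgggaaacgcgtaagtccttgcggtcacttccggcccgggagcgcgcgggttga
Hdac5, chr11:102230173-102230422, minus strand: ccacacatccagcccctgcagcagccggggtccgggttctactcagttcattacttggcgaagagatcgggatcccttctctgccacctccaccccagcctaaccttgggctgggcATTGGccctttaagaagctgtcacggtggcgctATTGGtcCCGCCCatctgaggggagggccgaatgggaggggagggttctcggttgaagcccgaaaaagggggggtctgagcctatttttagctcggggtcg
Kat2a, chr11:100712468-100712717, minus strand: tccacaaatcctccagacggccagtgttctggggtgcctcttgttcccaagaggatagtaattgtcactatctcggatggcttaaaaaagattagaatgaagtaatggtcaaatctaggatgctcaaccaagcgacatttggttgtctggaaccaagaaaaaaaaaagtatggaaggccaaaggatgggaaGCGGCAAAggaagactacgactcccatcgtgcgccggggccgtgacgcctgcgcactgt
Hdac2, chr10:36974294-36974543, plus strand: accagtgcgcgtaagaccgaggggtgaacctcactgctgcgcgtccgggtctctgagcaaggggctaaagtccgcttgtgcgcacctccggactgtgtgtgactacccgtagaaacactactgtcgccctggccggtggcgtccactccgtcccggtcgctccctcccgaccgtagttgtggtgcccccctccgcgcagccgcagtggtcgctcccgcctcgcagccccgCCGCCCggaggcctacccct
Crebbp, chr16:4213405-4213654, minus strand: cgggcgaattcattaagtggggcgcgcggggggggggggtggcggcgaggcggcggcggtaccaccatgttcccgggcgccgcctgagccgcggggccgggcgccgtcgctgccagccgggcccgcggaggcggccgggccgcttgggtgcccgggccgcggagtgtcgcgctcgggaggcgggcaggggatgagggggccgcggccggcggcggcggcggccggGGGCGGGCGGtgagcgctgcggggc
Ep300, chr15:81585964-81586213, plus strand: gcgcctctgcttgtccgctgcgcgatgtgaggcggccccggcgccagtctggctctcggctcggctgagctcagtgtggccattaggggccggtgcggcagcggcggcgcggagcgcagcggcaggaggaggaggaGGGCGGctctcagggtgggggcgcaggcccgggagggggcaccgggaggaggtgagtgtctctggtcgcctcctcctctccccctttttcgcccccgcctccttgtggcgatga

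The Hat1 window held 1 CCAAT and 1 GC box match, the Hdac5 window 2 CCAAT and 1 GC box match, and the Hdac2 window 1 GC box match. The Kat2a window held 1 E2F-type word and neither of the others. Crebbp had 2 overlapping GC box matches and Ep300 had 1, with no CCAAT or E2F-type match in either. Of 32851 windows in the table, 33.8% held CCAAT, 32.7% a GC box and 1.86% an E2F-type word. GC boxes were found for 8 of 10 rising genes with a window, 3 of 4 falling genes and 12 of 16 genes that were not called. In the same order, CCAAT was found for 2, 2 and 10 genes and an E2F-type word for 0, 1 and 1. These counts are per gene, where a match in any window of the gene sufficed (42 windows for 30 genes). The shares over the table are per single window, so the 2 are not on the same footing. Crebbp had the window richest in CG dinucleotides of the 6 shown, with 44, and its GC content was 84.0%, against medians of 6 and 52.4% over all windows. A match is a description of letters and not a binding site.

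Other genes of the acetylation machinery, 126 tested genes in 10 lists, gave 44 higher and 27 lower with TMM (34.9% and 21.4%, beside 21.8% and 24.6% of all genes tested). With T cell identity scaling they gave 7 higher and 78 lower, and lower calls outnumbered higher calls in each of the 10 lists. All values of single partner genes are on the TMM scale. Of 21 SAGA and ATAC subunits 5 were higher and 3 lower. Atxn7, which anchors the deubiquitinase module, went from 78.4 ± 5.42 to 136 ± 10.6 CPM, and Trrap, the scaffold shared with TIP60, from 96.0 ± 1.73 to 119 ± 4.35 CPM. Supt20 and Tada2b rose with log2 fold changes of 0.59 and 0.55. The NuA4/TIP60 list gave 5 higher and 6 lower of 15. Ruvbl2 and Ruvbl1, its paired ATPases, fell with log2 fold changes of -0.81 and -0.66, and Actl6a and Morf4l2 with -0.65 and -0.58. Of 18 MOZ, HBO1, MSL and NSL subunits 8 were higher and 2 lower, among them Kansl1 (0.56), Msl2 (0.45) and Msl1 (0.35) as higher and Hcfc1 (-0.38) as lower.

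On the TMM scale the SIN3, NuRD and CoREST/MiDAC lists of deacetylase complex subunits held more higher than lower calls. Higher were 33.3%, 44.4% and 50% of their genes, beside 21.8% of all genes tested. Lower were 20%, 11.1% and 0%, beside 24.6%. With T cell identity scaling these lists gave 2, 1 and 0 higher and 11, 6 and 5 lower, whereas the counts that follow are with TMM. The SIN3 list gave 5 higher and 3 lower of 15. Arid4b and Arid4a, chromatin-binding subunits, rose from 412 ± 15.8 to 762 ± 63.3 CPM and from 509.7 ± 16.4 to 822 ± 63.6 CPM. Rbbp7, a histone chaperone that also partners HAT1, fell from 409 ± 12.5 to 209.6 ± 8.09 CPM (log2 fold change -0.96 ± 0.047), beside -0.94 for Hat1, and Sap30 fell from 53.3 ± 7.07 to 28.7 ± 4.13 CPM. NuRD gave 4 higher and 1 lower of 9. This count leaves out Rbbp7 and Rbbp4 (log2 fold change -0.22, not called), which were placed in the SIN3 list only, so it depends on that placement. Of its ATPases, Chd3 rose from 787 ± 34.1 to 1442 ± 149 CPM, and Chd4 was not called, at 1815.5 and 1748 CPM (log2 fold change -0.054). Mbd2 and Gatad2b rose with log2 fold changes of 0.38 and 0.36, and Mbd3 fell with -0.24. The CoREST and MiDAC list gave 6 higher and 0 lower of 12, led by Mideas (0.58), Phf21a (0.49) and Zmym2 (0.61). Of 3 further subunits of the NCoR complex Gps2 was higher (0.27) and Tbl1x lower (-0.25).

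Genes that act on class IIa deacetylases, their kinases and MEF2 partners, gave 6 higher and 2 lower of 11 with TMM, and 1 and 5 with T cell identity scaling. Camk4, a calcium-dependent kinase that drives class IIa enzymes out of the nucleus, rose from 83.9 ± 7.61 to 187 ± 19.1 CPM (log2 fold change 1.16 ± 0.087). Mef2d rose with 0.62 and the kinase Prkd2 with 0.70, while Prkd3 fell with -0.76. Cofactor genes went both ways with TMM, where 21.8% of all genes tested were higher and 24.6% lower. Acetyl-CoA supply gave 2 higher and 3 lower of 10 (20% and 30%) with TMM, and 1 and 7 with T cell identity scaling. The acetyl-CoA synthetases Acss1 and Acss2 rose from 11.3 ± 1.37 to 20.3 ± 1.16 CPM and from 7.12 ± 1.77 to 16.9 ± 4.38 CPM, and the mitochondrial carriers Mpc1 and Slc25a1 fell with log2 fold changes of -0.46 and -0.53. NAD supply and use gave 2 higher and 6 lower of 12 (16.7% and 50%) with TMM, and 1 and 7 with T cell identity scaling. Nampt, the rate-limiting enzyme of NAD salvage on which sirtuins depend, fell from 135 ± 8.30 to 74.8 ± 6.53 CPM, and Parp1, a large NAD consumer, from 192 ± 4.48 to 116 ± 2.98 CPM. Cd38 and Bst1, NAD glycohydrolases of the cell surface, fell with -0.98 and -3.87. The summed macrophage, neutrophil and dendritic cell markers fell alongside these NAD genes, and their part was not tested.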

How the data were processed

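Whole-number counts per gene were deposited by the authors without normalization in one table with gene coordinates and lengths. The submitters' processing notes name fastp (0.23.4), the aligner STAR (2.5.3a), the counter featureCounts, and GRCm39 beside GRCh38 as builds; coordinates of the mouse genes are given as deposited, as GRCm39. Neither strand setting nor duplicate handling is stated. Per the labels' protocols, stranded mRNA libraries were made from TRIzol RNA.

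Groups and replicate numbers came from sample titles. Replicates of a group differed by more than counting noise in every pair (chi-square per gene 3.98 to 12.2), so all 7 were kept. A gene at 1 CPM rests on 8.98 to 14.3 counts. Unmapped sample columns numbered 0.

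The whole table was fitted with edgeR 4.0.16 under R 4.3.3: filterByExpr defaults (minimum count 10, minimum total 15), TMM, glmQLFit and glmQLFTest of FOXP3-high against FOXP3-low without a block, Benjamini-Hochberg adjustment over 15838 genes. SE is the absolute log2 fold change over the square root of F. The procedure was tested on simulated data. Ratios of gene pairs used a prior count of 0.5 (alternative 2) and an exact permutation test.

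The genes and lists were chosen with earlier results of these data known. By rule, called genes with an absolute log2 fold change of at least 0.5 are given by library and the others by mean or range; library values of Ep300, Kat2b, Kat2a, Hdac2, Sirt1 and Ncor1 were added outside it, after their values were seen. In each list of partners up to 4 genes with the smallest adjusted p are named, and Chd4 was added outside this rule. Counts include genes that are not reported here by name. Genes were searched for overlaps with another gene holding at least 10% of their counts. Alternatives were DESeq2 size factors, upper quartile factors, total counts, T cell identity scaling, 2 other filters, the DESeq2 1.42.0 Wald test, limma-voom (limma 3.58.1), leaving out libraries, a replicate block and, added after the data were seen, a length correction (loess span 0.4).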

Additional observations from a re-analysis of the deposited data

Results flagged for a closer look

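In the 4 FOXP3-low libraries, 1 library lay far from the other 3 for 2 of the 37 genes. Hdac5 was at 54.8 CPM in replicate 1 against 47.8 to 48.9 CPM in the others, a gap of 0.84 of the whole range and above Dixon's 95% critical value for 4 samples. Sirt1 was at 19.2 CPM in replicate 2 against 17.7 to 17.8 CPM, a gap of 0.90 of the range. Chance alone marks about 1 in 20 groups, and 37 were examined. Both genes kept their call without the library concerned.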

How the results depend on the processing

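Of the 18 called genes, 14 kept their direction and their call in every alternative other than T cell identity scaling, and 5 kept both in all 18 alternatives: Crebbp, Hat1, Hdac1, Hdac2 and Hdac5. T cell identity scaling gave 1 higher and 20 lower of the 37 genes, 7 higher and 78 lower of the partner genes, and turned 21 of the reported log2 fold changes below 0: Ep300 -0.039, Kat2b -0.0076, Kat6b -0.058, Kat7 -0.44, Kat8 -0.18, Naa60 -0.40, Hdac8 -0.30, Hdac4 -0.30, Hdac7 -0.32, Hdac10 -0.059, Sirt1 -0.058, Sirt3 -0.013, Sirt5 -0.46, Sirt7 -0.10, Ncor1 -0.18, Ncoa1 -0.13, Ncoa2 -0.0070, Ncoa3 -0.19, Ncoa5 -0.45, Ncoa6 -0.29 and Ncoa7 -0.40. The gene length correction gave 15 lower partner genes in place of 27. The other sign changes were of genes not called in either fit. With the length correction they were Kat5 0.11, Hdac6 0.012, Sirt2 0.0076 and Sirt4 0.052. With total counts they were Kat5 0.00054 and Hdac6 0.0076, and without libraries numbered 3 Hdac6 0.027. Without a filter they were Sirt5 -0.0036 and Ncoa5 -0.00032. Leaving out each library in turn moved Sirt5 between -0.088 and 0.21 and Ncoa5 between -0.014 and 0.095. The cause of these changes was not tested. All 8 paralog ratios kept their direction with a prior count of 2 and when any single library was left out. The other alternatives were not run for the ratios. Whether replicate numbers pair the samples was not settled. Deviations of same-numbered libraries correlated at -0.13, 0.29 and 0.67, and so few values cannot decide it. The 0.67, of the libraries numbered 3, was the highest between any FOXP3-low and any FOXP3-high library. With a replicate block 12 genes were higher and 4 lower, Sirt5 was at -0.098, and Kat2a and Ncoa6 lost their call. The genes under 5 CPM in FOXP3-low (Hdac9, Hdac11, Sirt3, Sirt4, Sirt5 and Sirt6) had an SE of 0.24 to 0.40.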
